A study of Mus musculus with 5 samples.

Results

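The variable (V) genes of the immunoglobulin heavy chain locus were followed in germinal center B cells with and without Relb and Nfkb2. Members were all rows of the processed table whose name begins with IGHV and a digit, 114 of 38924 genes. Mice aged 12 weeks were immunized with sheep red blood cells, and at day 7 the cells were sorted from the spleen by flow cytometry; the series title calls them eGFP positive. The 3 WT libraries are from mice with Cg1-Cre alone. The 2 DKO libraries are from littermates with floxed Relb and floxed Nfkb2 alleles and Cg1-Cre. Cg1-Cre sits in the IgG1 constant region gene, in the same locus as the V genes, and acts on floxed alleles once that region is transcribed; all 5 libraries carry it. The labels give neither the strain background nor the number of Cre copies. No label says that the libraries of a genotype came from separate mice, so the p-values measure the spread between these libraries.

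A heavy chain variable domain is assembled in each B cell precursor by joining 1 V gene to a D and a J segment, and all descendants of that cell keep the joined V gene. V genes are grouped by sequence likeness into families, which carry the first number of the gene name. In a germinal center clones expand and mutate these segments, so the reads of V genes depend on which clones were sampled and on how much heavy chain RNA each cell made. In bulk RNA fewer cells that use a V gene and less RNA per cell cannot be told apart.

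V genes of 1 family resemble each other closely enough that a read of 50 bases can fit several of them. For 7 members the last 300 bases of the coding sequence, from GENCODE M21 on GRCm38 and on chromosome 12, are printed 5′ to 3′ with capitals for bases that lie in a 50-base window also present in another Ighv gene. The first 4 are the members with the largest share in a library, Ighv14-4 is the member with the smallest p between genotypes, and Ighv1-81 and Ighv1-72 were chosen after their values were seen because they varied between libraries. Each gene has 2 exons, and the printed bases, which begin at coding base 51 to 54, lie wholly in the second, the exon of the V domain.
Ighv2-2: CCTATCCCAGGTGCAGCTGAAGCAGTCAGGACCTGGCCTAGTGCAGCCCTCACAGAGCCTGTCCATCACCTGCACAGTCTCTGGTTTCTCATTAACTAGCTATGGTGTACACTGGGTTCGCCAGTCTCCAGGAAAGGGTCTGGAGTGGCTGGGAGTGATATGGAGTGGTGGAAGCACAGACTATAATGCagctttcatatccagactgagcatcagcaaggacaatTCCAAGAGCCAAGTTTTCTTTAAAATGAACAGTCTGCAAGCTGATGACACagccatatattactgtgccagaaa
Ighv5-6: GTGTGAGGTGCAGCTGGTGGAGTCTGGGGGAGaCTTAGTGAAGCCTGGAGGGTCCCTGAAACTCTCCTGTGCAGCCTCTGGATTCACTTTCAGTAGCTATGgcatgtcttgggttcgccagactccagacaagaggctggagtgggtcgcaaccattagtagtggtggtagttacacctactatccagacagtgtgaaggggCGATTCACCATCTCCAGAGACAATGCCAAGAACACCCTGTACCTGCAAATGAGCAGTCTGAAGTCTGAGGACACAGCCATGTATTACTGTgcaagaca
Ighv2-9: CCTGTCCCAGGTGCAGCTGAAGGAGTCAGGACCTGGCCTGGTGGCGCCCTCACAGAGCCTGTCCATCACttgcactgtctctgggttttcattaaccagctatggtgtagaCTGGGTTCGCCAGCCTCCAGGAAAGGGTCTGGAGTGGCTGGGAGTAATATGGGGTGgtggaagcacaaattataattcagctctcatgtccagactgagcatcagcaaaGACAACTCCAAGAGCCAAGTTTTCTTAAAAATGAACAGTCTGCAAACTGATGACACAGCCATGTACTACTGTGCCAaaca
Ighv2-5: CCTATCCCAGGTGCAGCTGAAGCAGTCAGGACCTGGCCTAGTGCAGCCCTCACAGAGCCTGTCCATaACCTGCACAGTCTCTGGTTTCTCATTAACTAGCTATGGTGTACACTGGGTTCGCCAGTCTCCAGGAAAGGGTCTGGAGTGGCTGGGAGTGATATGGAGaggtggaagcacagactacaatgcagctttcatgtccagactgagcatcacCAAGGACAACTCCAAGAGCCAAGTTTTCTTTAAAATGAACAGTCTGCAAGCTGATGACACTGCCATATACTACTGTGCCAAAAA
Ighv14-4: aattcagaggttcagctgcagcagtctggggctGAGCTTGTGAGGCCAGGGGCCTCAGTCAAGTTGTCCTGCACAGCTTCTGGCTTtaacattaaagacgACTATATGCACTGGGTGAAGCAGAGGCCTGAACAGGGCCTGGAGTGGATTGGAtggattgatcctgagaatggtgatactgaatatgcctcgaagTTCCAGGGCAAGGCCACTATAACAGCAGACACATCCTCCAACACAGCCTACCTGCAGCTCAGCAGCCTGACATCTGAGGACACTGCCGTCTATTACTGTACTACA
Ighv1-81: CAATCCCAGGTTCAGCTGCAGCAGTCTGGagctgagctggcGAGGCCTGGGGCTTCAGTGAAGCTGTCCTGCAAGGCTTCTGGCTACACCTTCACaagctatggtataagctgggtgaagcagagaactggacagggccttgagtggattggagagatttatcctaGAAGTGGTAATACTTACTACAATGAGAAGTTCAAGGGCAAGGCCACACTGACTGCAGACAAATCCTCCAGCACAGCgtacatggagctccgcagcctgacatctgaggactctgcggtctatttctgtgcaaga
Ighv1-72: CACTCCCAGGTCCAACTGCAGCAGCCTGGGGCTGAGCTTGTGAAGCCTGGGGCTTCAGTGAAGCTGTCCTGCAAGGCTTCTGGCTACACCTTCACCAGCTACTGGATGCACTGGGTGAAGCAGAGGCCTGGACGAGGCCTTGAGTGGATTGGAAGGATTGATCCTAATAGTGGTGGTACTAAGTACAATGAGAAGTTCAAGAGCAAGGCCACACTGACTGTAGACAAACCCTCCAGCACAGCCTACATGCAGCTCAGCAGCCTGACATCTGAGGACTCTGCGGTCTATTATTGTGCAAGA
Capitals cover all 300 printed bases of Ighv1-72 and 159 of those of Ighv1-81. Over whole transcripts, Ighv1-81 and Ighv5-6 had 88.4% and 84.5% of their windows in no other Ighv gene. The corresponding values were 79.2% for Ighv2-9, 78.8% for Ighv14-4, 70.1% for Ighv2-5 and 44.6% for Ighv2-2. In Ighv1-72 this was 7.49%, and 68.3% of its windows were also in Ighv1-62-3, so its reads are the least certain of the 7. Ighv2-2 shared 41.9% of its windows with Ighv2-4.

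The targeted genes were lower in DKO, with a gap between the 2 DKO libraries. WT libraries, in the order of replicates 1 to 3, had 136, 171 and 117 normalized counts of Relb, and DKO libraries 56.9 and 10.7. For Nfkb2 they had 657, 601 and 445 against 298 and 73.5. Neither gene passed limma's test over all genes (adjusted p = 0.823 for both). Libraries held 33953377 to 57582464 reads, of which 15397317 to 17701685 lay outside mitochondrial genes. Of 9 germinal center B cell markers, Bcl6, Fas and S1pr2 among them, 8 had reads and Mef2b was at 0 in all 5 libraries. Their summed level was 46147 to 66509 in WT and 51853 to 52199 in DKO. T cell markers summed to 66.4, 789 and 33.6 in WT and to 424 and 86.7 in DKO. Naive B cell markers summed to 9366, 28156 and 12579 in WT and to 25187 and 10662 in DKO, so WT replicate 2 and DKO replicate 1 stood above the other 3 libraries in both lists.

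Reads assigned to V genes were few in every library, and their total did not separate the genotypes. The members held 3574, 4737 and 5613 reads in WT and 5222 and 4914 reads in DKO, between 0.0232% and 0.0363% of reads outside mitochondrial genes. Normalized counts summed to 3826, 4888 and 5394 in WT against 4573 and 4059 in DKO, with the DKO values inside the WT range. The log2 difference of this sum, DKO against WT, was −0.11 (exact permutation test, two-sided p = 0.6). With 3 against 2 libraries there are 10 arrangements and the smallest two-sided p is 0.2, so no such test here can pass 0.05. The summed V genes amounted to 5.10% ± 0.407 (SD, n = 3) of the level of Ighm, the constant region of IgM, in WT and to 4.93% ± 0.820 (SD, n = 2) in DKO. Of the 114 members, 111 had a read in at least 1 library and 83 had reads in all 5. The mean level was at least 10 normalized counts in 65 members, which were tested, and under 10 in 49. Just inside that limit were Ighv1-58 and Ighv1-2, at 10.6 and 10.2, and just outside it Ighv1-85 and Ighv1-22, at 9.997 and 9.80.

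A few V genes of the Ighv2, Ighv5 and Ighv1 families took the largest shares of the summed V gene level, and the leading gene differed between libraries of the same genotype. Ighv2-2 led in WT replicate 1, at 8.45% (95% Wilson interval 7.58% to 9.41%), and in DKO replicate 1, at 7.41% (6.73% to 8.15%). Ighv5-6 led in WT replicate 2 at 9.50% (8.70% to 10.4%), Ighv2-9 in WT replicate 3 at 11.2% (10.4% to 12.1%) and Ighv2-5 in DKO replicate 2 at 7.57% (6.86% to 8.34%). These intervals cover counting error only. Ordered by level per exon length, Ighv5-6, Ighv2-2 and Ighv2-9 held ranks 1, 2 and 3 as before, while Ighv2-5 went from rank 4 to rank 6.

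WT libraries had 125, 464 and 543 normalized counts of Ighv5-6 against 271 and 277 in DKO libraries. Its DKO values were close to each other and inside a WT range that spanned 6.79 percentage points of share. For Ighv2-5 the WT levels were 31.0, 337 and 323 and the DKO levels 203 and 307, so that WT replicate 1 alone was low. For Ighv2-9 the levels were 225, 224 and 604 in WT against 244 and 137 in DKO, with WT replicate 3 alone high. Ighv2-2 was steadier, with 323, 307 and 226 against 339 and 263.

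Ighv1-9, the leading member of the largest family, varied least of all tested members, from 172 to 248 normalized counts over the 5 libraries. Ighv3-6, which led the Ighv3 family, had WT levels of 140, 225 and 113 and DKO levels of 201 and 186. Ighv3-1 was at 285, 120 and 171 against 123 and 94.2, with WT replicate 1 the highest. Ighv9-3, Ighv5-4 and Ighv1-64 completed the 10 leading members, each with a mean share near 3% (3.02%, 2.96% and 2.95%). Their normalized counts in DKO lay inside the WT range. By share, Ighv9-3 was at 4.05% in DKO replicate 2, above its highest WT share of 3.80% in WT replicate 2. Ighv7-1, known from antibodies to phosphorylcholine, had WT levels of 23.6, 76.4 and 29.8, while the DKO levels were 281 and 22.3. DKO replicate 1 held 6.15% of V gene levels as Ighv7-1 (95% Wilson interval 5.53% to 6.83%), against 0.549% in the other DKO library.

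**Figure D1:**
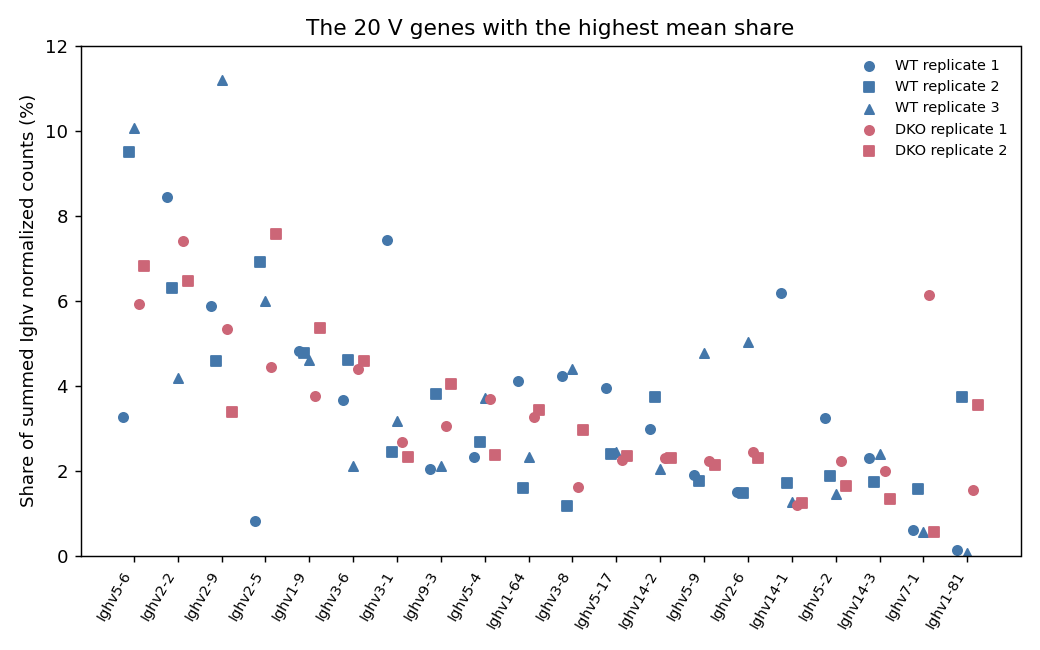
Share of the summed Ighv normalized counts (y axis, percent) for the 20 V genes with the highest mean share (x axis), with 1 point per library, blue for WT and red for DKO. Ighv2-9 reaches 11.2% in WT replicate 3 and Ighv7-1 reaches 6.15% in DKO replicate 1, each far above the other library or libraries of its genotype.

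Of the 16 V families, Ighv1, Ighv2, Ighv5, Ighv3 and Ighv14 had the 5 largest mean shares in both genotypes, and no family passed a test between them. The Ighv2 family, with 10 members in the table, took 21.6%, 22.2% and 30.6% in WT and 24.0% in both DKO libraries. Ighv5, with 9 members, took 17.9%, 22.7% and 29.0% in WT and 20.9% and 19.8% in DKO. The Ighv1 family, which has the most members in the table at 55, took 20.1%, 25.5% and 15.3% in WT and 22.9% and 28.0% in DKO. Its mean share was 20.3% ± 5.09 (SD, n = 3) in WT and 25.5% ± 3.63 (SD, n = 2) in DKO, with overlapping values (exact permutation test, two-sided p = 0.4, adjusted p = 0.629 over 11 families). Counting error is small beside these spreads: the widest 95% Wilson half-interval of any family in any library was 1.35 percentage points.

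Ighv14 and Ighv10 were the tested families whose genotypes did not overlap. Ighv14, with 4 members, took 15.5%, 8.15% and 6.95% in WT and 6.24% and 5.51% in DKO, a difference of −4.33 percentage points (exact permutation test, two-sided p = 0.2, adjusted p = 0.629). Without WT replicate 1 this difference was −1.67 points. Shares were also taken of only the members with 75% or more of their windows in no other Ighv gene. On that base, which leaves out Ighv14-1 and Ighv14-2, it was −2.72 points with overlapping values (exact permutation test, two-sided p = 0.4). Ighv10, with 2 members, took 0.867%, 1.01% and 0.641% in WT and 1.97% and 1.10% in DKO, a difference of 0.69 points that was 0.26 without DKO replicate 1 and 1.13 without DKO replicate 2. Ighv3 took 15.4%, 8.28% and 9.75% in WT and 8.69% and 9.93% in DKO, and Ighv9 took 3.53%, 4.96% and 3.28% against 4.12% and 5.49%. Ighv7 took 1.18%, 2.72% and 1.66% in WT and 7.39% and 1.79% in DKO. That difference of 2.74 points was −0.061 without DKO replicate 1, the library in which Ighv7-1 was high. Ighv10-1, which led Ighv10, had levels of 24.6 to 38.2 normalized counts with overlap, and Ighv8-12, which led Ighv8, ran from 18.2 in WT replicate 1 to 70.2 in WT replicate 2 and DKO replicate 2. Ighv8, Ighv6 and Ighv4 had mean shares of 1.92%, 1.31% and 0.254%.

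The remaining 5 families, each with a mean level under 10 normalized counts, were not tested. Ighv11 and Ighv12, known from B-1 cell antibodies to phosphatidylcholine, were near the limit of counting. Ighv11-1, the leading Ighv11 gene, had 2 reads in WT replicate 1, 2 in WT replicate 3 and 0 elsewhere. Ighv12-3 had 6, 5 and 1 reads in WT and 10 and 10 in DKO. Ighv13-2 had 0 to 8 reads, Ighv15-2 had 1 to 10, and Ighv16-1 had 0 in all 5 libraries. With 3 reads taken as the limit for a count of 0, its share can be up to 0.0839% or 0.0534%. These are for the libraries with the fewest and the most V gene reads.

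**Figure D2:**
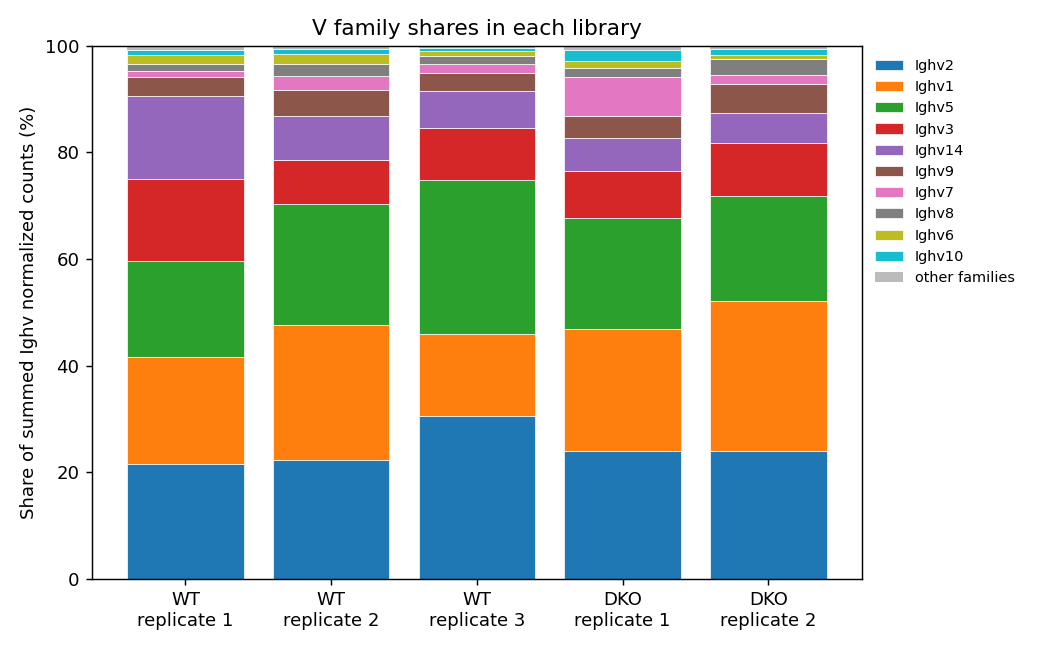
Stacked bars give the share of each V family in the summed Ighv normalized counts (y axis, percent, from 0 to 100) in each of the 5 libraries (x axis). Ighv14 takes 15.5%, 8.15% and 6.95% in WT replicates 1 to 3 and 6.24% and 5.51% in DKO replicates 1 and 2. Ighv7 is widest in DKO replicate 1 at 7.39%.

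V gene use was somewhat more even in both DKO libraries than in any WT library. The effective number of V genes, the inverse of the summed squared shares, was 26.6, 28.7 and 22.0 in WT and 32.1 and 31.1 in DKO. The difference of 5.79 genes is the most extreme arrangement of these 5 libraries (exact permutation test, two-sided p = 0.2, the smallest possible). The leading V gene took 9.72% ± 1.39 (SD, n = 3) in WT and 7.49% ± 0.113 (SD, n = 2) in DKO, and the 10 leading genes of each library together took 53.5% ± 3.34 and 47.8% ± 0.492. Without WT replicate 3, the least even library, the difference in effective number was 3.89 genes and that in the leading share −1.48 points in place of −2.23.

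The profile over all 114 members did not group the libraries by genotype. The distance between 2 libraries, the percentage of V gene levels that would have to move between genes to make them equal, averaged 25.4 points over 6 pairs of different genotype and 28.2 over 4 pairs of the same genotype (exact permutation test, one-sided p = 1). This difference of −2.76 points was 4.66 points without WT replicate 2, and 0.00324 when 1 minus Spearman's rho was used as the distance. WT replicate 2 and DKO replicate 2 were the closest pair, at 14.8 points. The 2 DKO libraries were 18.2 points apart and WT replicate 2 and DKO replicate 1 were 18.6 points apart. Each of the 3 pairs within WT was at least 28.7 points apart.

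Rank correlations grouped WT replicate 2 with both DKO libraries, as the distance did. They are given here as a description across genes, which are not independent replicates. Spearman's rho over the 114 members was 0.92 between WT replicates 1 and 3, although their distance by share was 32.0 points. Among WT replicate 2, DKO replicate 1 and DKO replicate 2 rho was between 0.91 and 0.92. The other 6 pairs, each of which joins WT replicate 1 or 3 with one of these 3 libraries, had values from 0.74 to 0.82. V gene reads were 3574 and 5613 in WT replicates 1 and 3 and 4737, 5222 and 4914 in the others. T cell markers summed to 66.4 and 33.6 in WT replicates 1 and 3, below the 789, 424 and 86.7 of WT replicate 2 and DKO replicates 1 and 2. Naive B cell markers summed to 9366 and 12579 in the first 2 libraries and to 28156, 25187 and 10662 in the other 3. The part of depth or of these cells in the grouping was not tested.

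**Figure D3:**
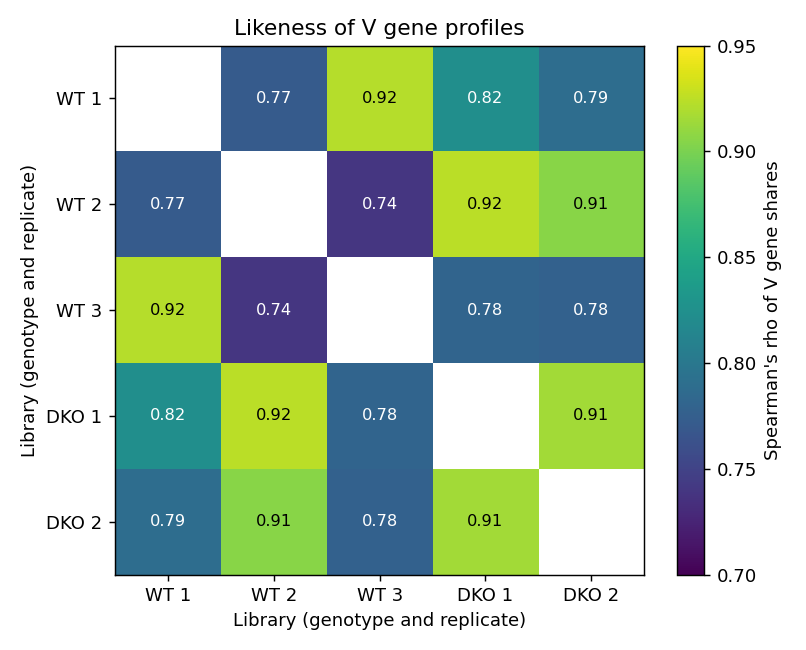
Spearman's rho of V gene shares over 114 members for each pair of libraries (both axes, genotype and replicate number), with the value printed in each square. By rank, WT replicates 1 and 3 are alike at 0.92. WT replicate 2 is closer to both DKO libraries (0.92 and 0.91) than to the other WT libraries (0.77 and 0.74).

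Several V genes were nearly without reads in WT replicates 1 and 3 and well covered in the other 3 libraries. In 10 of 65 tested members at least 1 library lay under 10% of the member's highest library. Of these 10, 7 belong to Ighv1, which holds 26 of the 65 tested members. The share of all genes with such a library was not tallied. WT replicate 1 was that low in 8 members, WT replicate 3 in 7, DKO replicate 1 in 1, DKO replicate 2 in 1 and WT replicate 2 in 0. Ighv1-81, Ighv1-59, Ighv1-55, Ighv1-72, Ighv1-58 and Ighv5-16 were low in both WT replicate 1 and WT replicate 3; apart from Ighv1-55 they were singled out after their values were seen.

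Ighv1-81 showed the widest span of any tested member with reads in all libraries. Its WT levels were 5.35, 183 and 3.84 normalized counts, against 70.9 and 144 in DKO. WT replicates 1 and 3 held 5 and 4 of its reads, and the other 3 libraries held 177, 81 and 174. By share it was 0.140% in WT replicate 1 (95% Wilson interval 0.0598% to 0.327%) and 3.74% in WT replicate 2 (3.23% to 4.32%), a gap within WT far beyond counting error. Ighv5-16, which shares no 50-base window with another Ighv gene, had 0, 57 and 4 reads in WT and 31 and 30 in DKO. Ighv1-72, known from the antibody response to the hapten NP, had 0, 46 and 0 reads in WT and 30 and 28 in DKO. With 3 reads taken as the limit for a count of 0, its share can be up to 0.0839% in WT replicate 1. In WT replicate 3 it can be up to 0.0534%. These limits are not Wilson intervals. The labels do not give the heavy chain haplotype of the mice, so a level near 0 says only that few or no reads were assigned to the reference sequence of that gene.

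Ighv1-59 had 4.28, 52.6 and 4.80 normalized counts in WT against 35.0 and 33.9 in DKO, and Ighv1-58 had 1.07, 22.7 and 1.92 against 15.8 and 11.6. In each of these genes the DKO values overlap the WT values because of WT replicate 2. Other members had a single exceptional library. Ighv2-5 was low in WT replicate 1, at 9.20% of its highest library, and the pseudogene Ighv1-14 was low in DKO replicate 1, at 8.44% of its level in WT replicate 3.

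**Figure D4:**
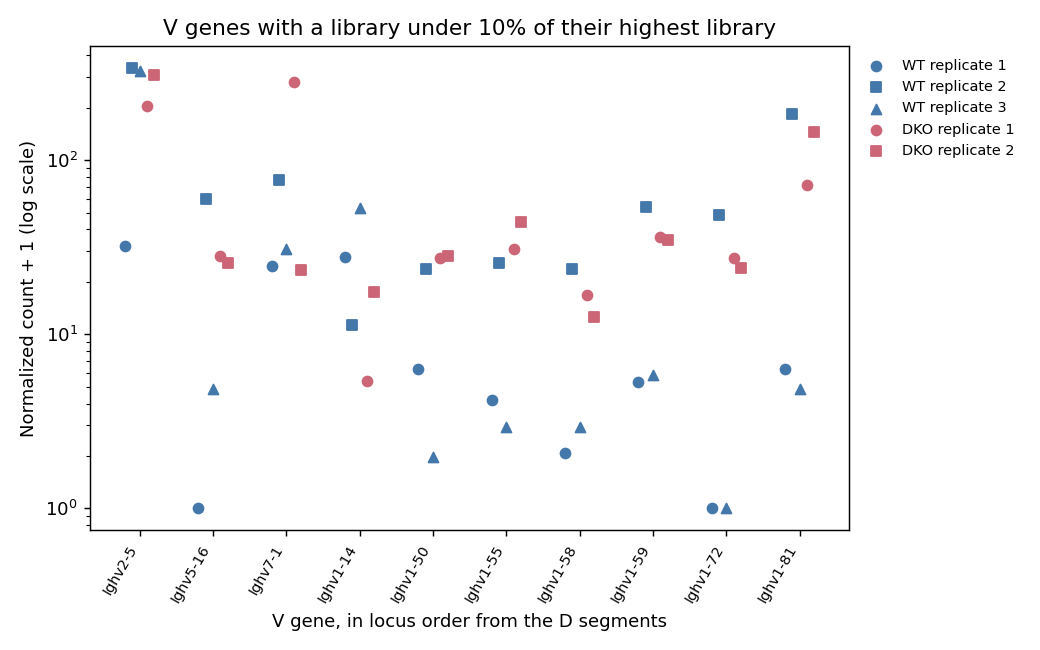
Normalized counts plus 1 on a log axis for the 10 V genes that have a library under 10% of their highest library (x axis, in locus order from the D segments), with 1 point per library, blue for WT and red for DKO. Ighv1-81 lies at 5.35 and 3.84 normalized counts before the added 1 in WT replicates 1 and 3 and between 70.9 and 183 in the other 3 libraries.

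No V gene differed between the genotypes past the adjusted threshold. Limma called 0 of 65 tested members and, over all 13242 genes tested, 0, or 0% (smallest adjusted p among members 0.823). At an unadjusted p under 0.05 there were 2 members, where 6.06% of all genes reached this: Ighv1-55, higher in DKO like 3.69% of all genes, and Ighv14-4, lower like 2.37%. EdgeR on the recovered reads called 0 members and 0% of all genes, with 2 members and 5.65% of all genes at an unadjusted p under 0.05. DESeq2 called 0 members and 0.219% of all genes, with 4 members and 6.77% of all genes at an unadjusted p under 0.05. Fold changes above 0 were found in 35 of 65 members, where all genes had 50%, and the median log2 fold change was 0.03 over the members and 0.00 over all genes. The median standard error of a member's log2 fold change was 0.66, against 0.33 over all genes. Both DKO libraries lay above all WT libraries in 7 members, where 12.5% of all genes did, and below them in 8 members, where 11% of all genes did. These 15 of 65 members, 23.1%, are near the 23.4% of all genes.

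Ighv14-4 and Ighv14-1 had the smallest p among the members lower in DKO. WT libraries had 155, 47.5 and 68.2 normalized counts of Ighv14-4 against 34.2 and 25.6 in DKO libraries. Both DKO values were below every WT value, and WT replicate 1 was more than the sum of the other WT libraries. Its log2 fold change was −1.40 ± 0.57 (SE; adjusted p = 0.823, limma). Ighv14-1 had WT levels of 237, 83.6 and 68.2 against DKO levels of 55.2 and 50.4 (log2 fold change −1.06 ± 0.54, adjusted p = 0.858, limma), again with WT replicate 1 the highest. Ighv14-2 had WT levels of 115, 183 and 110 against DKO levels of 105 and 93.3, a gap of a few counts between the lowest WT and the highest DKO library. By share Ighv14-2 overlapped, at 2.03% in WT replicate 3 against 2.30% in both DKO libraries. Ighv14-3 overlapped, at 87.8, 84.6 and 129 against 91.1 and 54.5. All 4 members of the family had log2 fold changes below 0, with a median of −0.77.

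Outside Ighv14, the members lower in both DKO libraries with the smallest p were Ighv6-6, Ighv5-17 and Ighv1-84. Ighv6-6, the leading Ighv6 gene, averaged 38.2 ± 4.35 (SD, n = 3) normalized counts in WT and 18.5 ± 9.78 (SD, n = 2) in DKO. Ighv5-17 averaged 133 ± 16.7 and 99.2 ± 5.90, and Ighv1-84 averaged 15.7 ± 2.41 and 8.15 ± 3.34. Their log2 fold changes were −1.10 ± 0.60, −0.42 ± 0.32 and −0.91 ± 0.82 (SE), none of them past the adjusted threshold.

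Higher in both DKO libraries, likewise without passing, were Ighv1-55, Ighv10-3, Ighv2-9-1, Ighv1-50, Ighv1-42 and Ighv4-1 by the same order. WT libraries had 3.21, 24.8 and 1.92 normalized counts of Ighv1-55 against 29.8 and 43.0 in DKO libraries (log2 fold change 2.43 ± 1.07, adjusted p = 0.823, limma). WT replicate 2 was close to the lower DKO library. Ighv10-3 had WT levels of 8.56, 11.3 and 6.73 against DKO levels of 53.4 and 16.5, where DKO replicate 1 carried most of the difference (1.67 ± 0.82, adjusted p = 0.843, limma). Ighv2-9-1 was at 17.1, 51.6 and 38.4 against 58.7 and 78.5, and Ighv1-50 at 5.35, 22.7 and 0.961 against 26.3 and 27.3. Ighv1-42 averaged 9.83 ± 0.664 and 20.7 ± 6.96. For Ighv4-1, the only Ighv4 gene in the table, the highest WT and the lowest DKO library were both at 10.7. By share Ighv4-1 overlapped, at 0.280% in WT replicate 1 and 0.265% in DKO replicate 2.

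By family, 16 of 26 tested Ighv1 members and 2 of 9 Ighv5 members had fold changes above 0. Ighv2 was split, with 4 of 8. All 3 tested Ighv7 members were above 0, at 23.6, 76.4 and 29.8 against 281 and 22.3 for Ighv7-1 and at 4.28, 13.4 and 11.5 against 24.5 and 10.7 for Ighv7-2; Ighv7-3 was at a log2 fold change of 0.02. Without WT replicate 2, 12 of 62 tested members, or 19.4%, reached an unadjusted p under 0.05, where 8.44% of all genes did. Of these, 8 were higher in DKO, like 5.61% of all genes, and 4 lower, like 2.83%. None passed the adjusted threshold, as 0.00762% of all genes did. Ighv1-81 led these at 4.20 ± 0.69 on the log2 scale (adjusted p = 0.156 by limma without WT replicate 2), against 2.52 ± 1.37 with all libraries. The WT libraries left without WT replicate 2 were replicates 1 and 3. Several of the members higher in DKO, Ighv1-81 among them, had been singled out above as low in both of these libraries. Their small p-values restate those low levels. The count above the background therefore cannot decide whether WT replicate 2 hid a difference between the genotypes. Leaving out any other library gave 0 or 1 member at an unadjusted p under 0.05. The background was 5.47% without WT replicate 1, 5.25% without WT replicate 3, 2.33% without DKO replicate 1 (0.00763% past the adjusted threshold) and 3.81% without DKO replicate 2. Without both WT replicate 2 and DKO replicate 1, 6 of 59 members reached it, or 10.2%, against 3.14% of all genes, and 0 members passed the adjusted threshold, as 0.0155% of all genes did. With the replicate number as a block, 3 members reached it against 4.28% of all genes, and 0 passed the adjusted threshold against 0.272%.

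**Figure D5:**
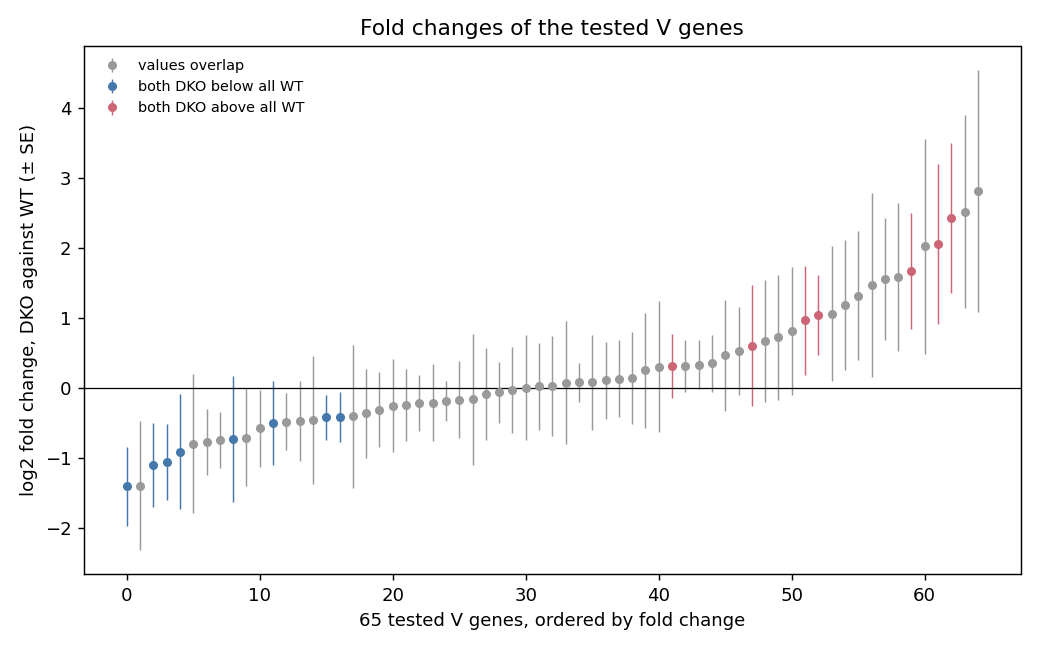
Log2 fold change, DKO against WT, with its standard error (y axis) for the 65 tested V genes in order of fold change (x axis), coloured where both DKO libraries lie above or below all WT libraries. The 8 members lower in both DKO libraries and the 7 higher in both are spread among members whose libraries overlap, and the 3 longest error bars belong to Ighv1-72, Ighv5-16 and Ighv1-81, with standard errors of 1.73, 1.54 and 1.37.

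Position in the locus went along with level. V genes were ranked along chromosome 12 in GENCODE order from the D segments, and the members were split in equal parts of 57. The D-proximal members, which include all Ighv2, Ighv5 and Ighv14 members, 7 of 55 Ighv1 members and 0 of 9 Ighv8 members, took 86.0%, 79.0% and 90.6% of V gene levels in WT and 80.9% and 76.0% in DKO. WT replicates 1 and 3 had the highest values, and the genotypes overlapped (exact permutation test, two-sided p = 0.4). Across the 114 members the Spearman correlation of mean level with distance rank was −0.40, and that with the share of windows found in no other Ighv gene was 0.01. Members with 75% or more such windows, 66 in number, took 65.8%, 66.8% and 71.4% in WT and 67.4% and 64.8% in DKO. The 8 members annotated as pseudogenes took 1.12%, 0.591% and 1.46% in WT and 0.326% and 0.672% in DKO.

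Other genes that act on the heavy chain locus are given from fixed lists, and limma called 0 of them. Of 7 constant region genes, 5 had fold changes below 0, and Ighg2b, Ighg2c, Ighg3 and Igha were lower at an unadjusted p under 0.05, like 2.37% of all genes (adjusted p = 0.823 for each). Ighg2c had 11580, 922 and 1207 normalized counts in WT libraries against 442 and 221 in DKO libraries, and Igha had 1574, 163 and 136 against 149 and 18.2. In both genes WT replicate 1 was far above the rest. Ighg2b and Ighg3 were also highest there, at 6355 and 11226, while Ighm, Ighg1 and Ighe were not. Ighv14-1, Ighv14-4 and Ighv3-1 were among the 12 of 65 tested V genes highest in that library. The other libraries were highest in 6 to 19 tested V genes each. The 7 tested plasma cell markers all had fold changes below 0, and the list summed to 14500 in WT replicate 1, 10648 and 12078 in the other WT libraries and 8466 and 9744 in DKO. Prdm1, which drives plasma cell differentiation, was at 926 there and at 113 to 162 in the other 4 libraries. Sdc1, a surface marker of plasma cells, was lowest there at 2.14, with 3.30 to 31.0 elsewhere. Xbp1 and Irf4, factors of the same program, were at 2100 and 2933 there, below the 2669 of Xbp1 in WT replicate 3 and the 3095 of Irf4 in WT replicate 2. Slpi was at 138 there, below the 141 of WT replicate 3. Igj and Txndc5 were highest in WT replicate 1, at 5365 and 3029, against at most 4921 and 2397 elsewhere. Tnfrsf17 was at 6.42 in WT replicate 1 and at 0 elsewhere. The part of such cells in the V gene shares was not tested. Among 7 tested genes of V(D)J recombination and end joining, 3 were above and 4 below 0. Dclre1c, the hairpin-opening nuclease Artemis, had the smallest p of these, at 1242 ± 359 (SD, n = 3) in WT and 2014 ± 147 (SD, n = 2) in DKO. Rag1 of the recombinase had 0 to 15.8 normalized counts and Dntt, which adds bases at the joins, at most 2.48. Genes of somatic hypermutation were split, 8 above and 8 below 0.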

How the data were processed

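RNA was amplified with the NuGEN Ovation RNA-Seq System V2, per the labels' protocols. The genome build mm9 and the tools Cufflinks 2.0.2, TopHat2 2.0.4 and CASAVA 1.8.2 come from the submitters' processing notes. How reads were counted, with which annotation and strand setting, is not given in the sources used here. Per gene and library the authors deposited a normalized signal, a read count divided by 1 factor per library: 99.999% of values above 0 were whole multiples of the library's smallest value, within 0.01. Dividing by that step gave reads. Reads over V-D-J joins or with many mutations may not align to a germline genome.

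Shares are free of the scaling. Values were tested with limma 3.58.1 (R 4.3.3) on log2(value + 1), with a trend, over all 13242 genes with a mean of at least 10, and Benjamini-Hochberg adjustment at 0.05. On that scale fold changes of low genes are understated. EdgeR 4.0.16 and DESeq2 1.42.0 were run on recovered reads. Single values per library had exact permutation tests. Families with a mean under 10 were left untested, a choice made after the data were seen. The limma step was tested on simulated data. Values of 1 listed gene are not reported here. Names matched GENCODE M21 (GRCm38, another build) for 114 of 114 members, so no coordinates are given; the table of 183 Ighv names there holds others not analysed here. Members, lists and tests were chosen with earlier results of these data known. Named genes were the leading members by share over all libraries, per library and per family, the 6 per direction with the smallest p among members whose groups do not overlap, and the 4 with the widest range within a genotype.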

Additional observations from a re-analysis of the deposited data

How the results depend on the processing

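No member was called under any of these alternatives (pseudocounts of 0.5 and 10, a minimum of 5 or none, TMM, quantile and summed Ighv scaling, the replicate block, edgeR, DESeq2 and each library left out) and under the added removal of both WT replicate 2 and DKO replicate 1. At an unadjusted p under 0.05 there were 2 members, and also 2 with a pseudocount of 10, TMM, quantile scaling or edgeR. There was 1 with a pseudocount of 0.5 or summed Ighv scaling, and 3 with a minimum of 5 or the replicate block. There were 4 with no minimum or DESeq2, and 1 to 12 with each WT library left out. For the pseudocounts, minimum levels and scalings the share of all genes was not tallied. Replicate numbers are shared by WT and DKO, but no label pairs them. Deviations from the group means correlated at 0.005 for number 1 and −0.28 for number 2. With 2 DKO libraries the deviations of 1 mirror those of the other, so these values cannot decide whether the libraries are paired. The block leaves WT replicate 3, which has no partner, out of the comparison, and leaving out a DKO library leaves 1, assumed to vary like WT. Scaling to the summed Ighv level moved the median gene by 0.11 (log2), and TMM by −0.02.

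Leaving out each library gave −0.253 to −0.00543 for the log2 summed level, −0.00474 to 0.00178 percentage points for its share of reads (above 0 without WT replicate 3), 3.89 to 7.26 for the effective number and −2.86 to −1.48 points for the leading share. The profile distance ran from −6.13 to 4.66, above 0 without WT replicate 2, and was 0.00324 as 1 minus Spearman's rho, where the main value was −2.76 points. Family differences in points ran from 2.62 to 7.79 (Ighv1), −2.35 to 2.13 (Ighv2), −3.28 to 0.302 (Ighv3), 0.0637 to 0.201 (Ighv4), −5.52 to 0.0340 (Ighv5), −0.795 to −0.0891 (Ighv6), −0.0610 to 5.54 (Ighv7), −0.0967 to 1.26 (Ighv8), 0.196 to 1.57 (Ighv9), 0.258 to 1.13 (Ighv10) and −5.96 to −1.67 (Ighv14). They changed sign without WT replicate 3 for Ighv2 and Ighv5, without WT replicate 1 for Ighv3, without DKO replicate 1 for Ighv7 and without DKO replicate 2 for Ighv8; the cause was not tested. Shares per kilobase, tested members only, without each library's leading member and, added after seeing the data, without pseudogenes or with members of 75% or more unique windows kept every sign (Ighv4 has no member in the last). Sizes moved: without the leading members Ighv5 was −0.303 in place of −2.88 and Ighv2 −2.35 in place of −0.754. As shares of the members with unique windows alone, Ighv2 was −2.95. Ighv14, there without Ighv14-1 and Ighv14-2, was −2.72 in place of −4.33. The difference of Ighv8 was 1.49 points, in place of 0.584, without WT replicate 2 and DKO replicate 1. The 12 named fold changes kept their sign in all fits run. Leaving out a library or blocking by replicate could not reverse a sign, because these members were chosen for groups that do not overlap. Ighv4-1 was not fitted without DKO replicate 1.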

Other observations

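The J segments, which complete the variable domain, also varied between libraries of the same genotype. Ighj4 took the largest part of the 4 Ighj genes in each library, with 50.5%, 35.2% and 41.7% of their summed level in WT and 44.2% and 37.8% in DKO. Ighj1 took 7.97%, 25.8% and 12.1% in WT and 15.8% and 17.4% in DKO, so that WT replicate 2 was the highest. Ighj3 took 30.6% ± 4.14 (SD, n = 3) in WT and 30.2% ± 1.69 (SD, n = 2) in DKO, and Ighj2 took 11.7% ± 1.05 and 12.2% ± 1.68.

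In the 104 kappa V gene rows normalized counts summed to 9257, 8372 and 9188 in WT libraries against 6904 and 6466 in DKO libraries, below every WT value. The kappa constant region gene Igkc was at 35717, 27827 and 32541 against 25439 and 24845, in the same order of genotypes (adjusted p = 0.877, limma). The kappa sum was not tested, and 11% of all genes tested lay below every WT value in both DKO libraries. Ighv1-78, a heavy chain V gene with a mean under 10 normalized counts that was chosen after its values were seen, had 1, 6 and 1 reads in WT and 18 and 21 in DKO. With no minimum level its log2 fold change was 2.51 ± 0.97 (adjusted p = 0.848, limma).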
